A study of Mus musculus with 6 samples.

Results

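The genes described here are 46 genes of the mammalian cell cycle: cyclins, cyclin-dependent kinases (CDKs), CDK inhibitors, the Rb and E2F factors, genes of DNA replication and mitosis, and Myc and Mycn. They were chosen by symbol, and all 46 had a row among the 24421 gene entries of the count table. The RNA sequenced was that of mouse induced pluripotent stem cells, or iPSCs: somatic cells reprogrammed to a state like that of embryonic stem cells. The 3 SRF KO libraries came from iPSCs with the SRFΔ/Δ genotype, whose serum response factor (SRF) gene is deleted. The 3 WT libraries came from iPSCs with the SRFf/f genotype, whose conditional allele is intact, and both kinds were grown in medium with serum. The labels used here do not say how the allele was deleted, or whether the replicates are separate clones or cultures, so that p-values measure only the spread between these libraries, which may be technical.

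SRF is a transcription factor of cytoskeletal and growth factor-responsive genes. The cell cycle advances as cyclins activate CDKs. In G1, D-type cyclins with Cdk4 or Cdk6 and then E-type cyclins with Cdk2 phosphorylate the Rb family, which releases E2F factors to transcribe genes of DNA synthesis. A-type and B-type cyclins with Cdk2 and Cdk1 then drive S phase and mitosis. Pluripotent mouse cells are known for a short G1 with high cyclin E activity, low levels of CDK inhibitors and little dependence on D-type cyclins.

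Total counts lay between 26321602 and 36680156 per library. The targeted gene Srf was at 4.20, 3.17 and 4.53 CPM (the usual unit of counts relative to library size, here scaled by TMM, the trimmed mean of M values) in SRF KO replicates 1 to 3 and at 36.6, 29.7 and 37.2 CPM in WT replicates 1 to 3. Srf was thus low in all 3 libraries labelled SRF KO. WT replicate 2 stood apart from the other WT libraries: for 29 of the 46 members, and for 8476 of 14778 genes tested, it was the WT value farthest from the WT median. Of 10 listed pluripotent cell markers, 1 was higher and 4 were lower in SRF KO, and their summed level was between 5400 and 5522 CPM in SRF KO cells and between 6278 and 6757 CPM in WT cells, so that they were present in all libraries. Of 12 endoderm markers, 11 were tested and all 11 were higher, with a summed level between 1002 and 1098 CPM against 45.2 to 49.0 CPM, and Ttr had no count in any WT library. All 10 fibroblast markers were higher, with a summed level between 772 and 924 CPM against 390 to 440 CPM. These marker levels moved with every difference described below, and their part in it was not tested. In bulk RNA, fewer cells of a type and less RNA per cell cannot be told apart.

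All 46 members passed the filter on low counts. Of these, 7 were called higher in SRF KO cells and 15 were called lower. A call was a Benjamini-Hochberg adjusted p under 0.05 in the quasi-likelihood test of edgeR, with all genes and transposable element subfamilies in 1 fit. Across all genes tested, 21.2% were higher and 21.3% lower, and the counts by role given below stand beside these shares. Among the genes with a mean of at least 500 counts, 17.9% were higher and 24.7% lower, and the 41 members at that depth gave 5 higher and 14 lower. The median log2 fold change was -0.05 over the members and -0.01 over all genes tested, so that the median member lay close to the median gene. Most differences were small, with 40 of 46 members under 0.5 on the log2 scale in either direction. Only Ccnd2, Myc and Ccna1 were called with an absolute change of at least 1, which is 3 of 46 members beside 7.29% of all genes. For 26 of 46 members the values of the groups did not overlap, beside 52.7% of all genes tested. Without WT replicate 2, 7 members were higher and 18 lower. That fit called 7461 of 15012 genes in either direction, beside 6273 of 14778 in the main fit.

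The members spanned a wide range of levels, given here as RPKM, which is TMM-scaled CPM per kilobase of exon. Cdc20 was at 148 RPKM in SRF KO cells and 149 RPKM in WT cells, and Pcna at 137 and 151 RPKM; these were the highest in both groups, in opposite order. Top2a, Mcm3, Ccnb1, Ccne1 and Cdk4 followed, between 101 and 130.2 RPKM in group means, with Top2a first of them in SRF KO cells and Mcm3 in WT cells. The lowest was Ccna1, at 0.165 and 0.339 RPKM. Genes of S phase and mitosis thus stood beside the G1 genes Ccne1 and Cdk4 at the top of the order in both genotypes.

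**Figure D1:**
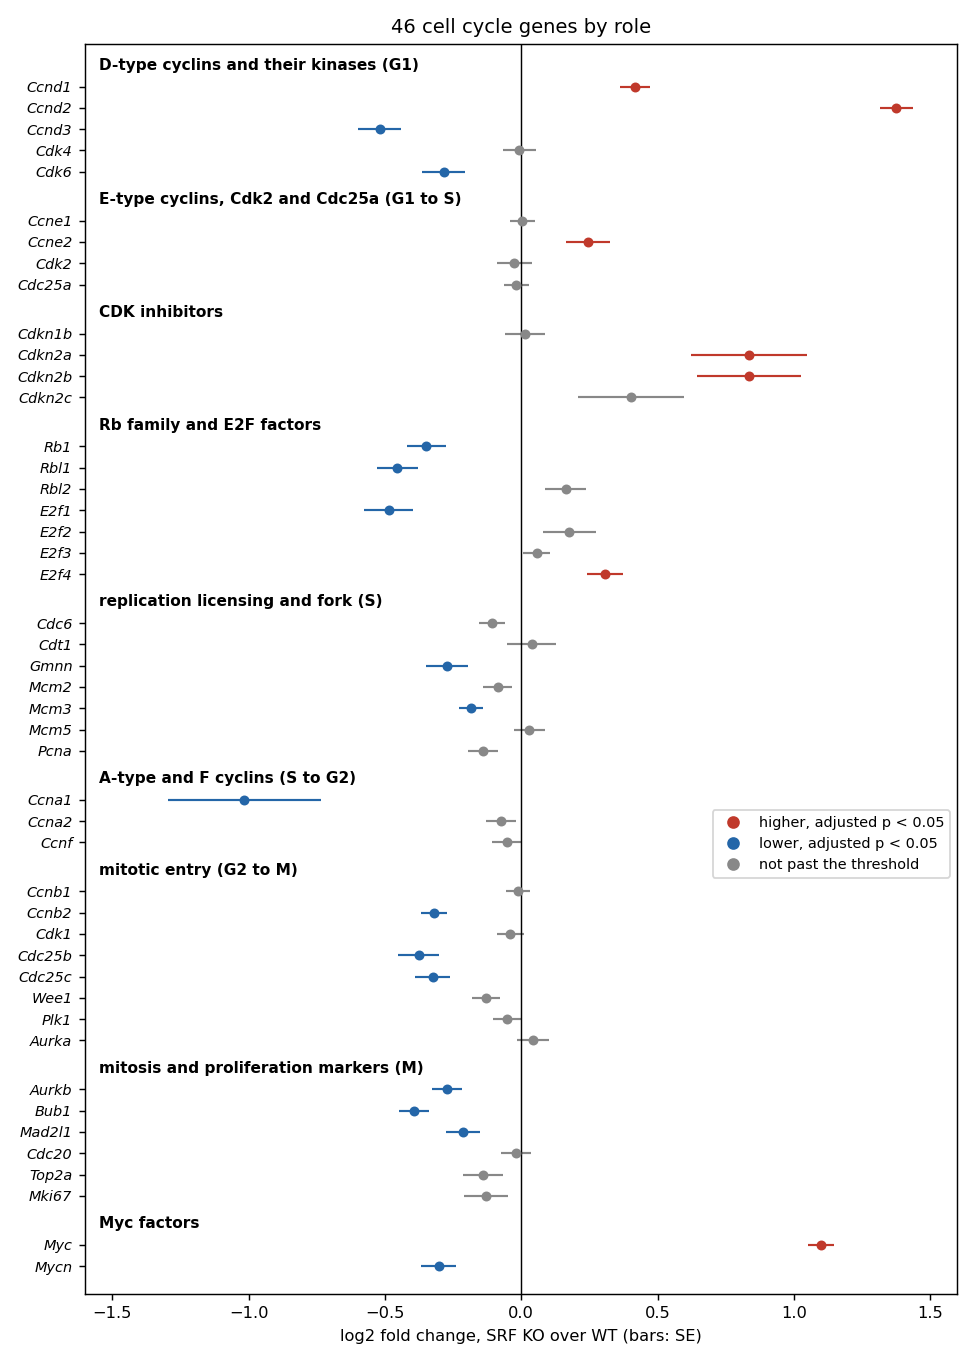
Log2 fold change of SRF KO over WT with its SE (horizontal axis) for each of the 46 members, grouped by role; red marks members that were higher, blue members that were lower and grey members not past the threshold. The 7 members that were higher include Ccnd2 at 1.38 and Myc at 1.10, while no member of the replication, A-type and F cyclin, mitotic entry or mitosis groups was higher.

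The D-type cyclins, which carry growth signals to the cell cycle in G1, did not move together. Ccnd2 and Ccnd1 rose and Ccnd3 fell. Ccnd2 (GRCm38/mm10, chr6:127125162-127152193, minus strand) was at 148, 140.2 and 157 CPM in SRF KO replicates 1 to 3 and at 55.1, 55.3 and 61.1 CPM in WT replicates 1 to 3. Every SRF KO library was thus far above every WT library, and the rise was the largest among the members, with a log2 fold change of 1.38 (SE 0.06, adjusted p in edgeR 1.5e-08). Ccnd1 (chr7:144929931-144939925, minus strand) was at 187, 191 and 196 CPM in SRF KO cells and at 149, 133 and 148 CPM in WT cells, a log2 fold change of 0.42 (SE 0.05, adjusted p in edgeR 9.3e-05). Ccnd3 (chr17:47505051-47599691, plus strand) was at 198, 177 and 195 CPM in SRF KO cells and at 262, 246 and 309 CPM in WT cells. It was lower in every SRF KO library, with a log2 fold change of -0.52 (SE 0.08, adjusted p in edgeR 0.000295). In the annotation, 23.4% of the exonic bases of Ccnd1 overlap Oraov1 on the opposite strand, and it is not known whether counting used strand. Oraov1 itself was at 6.67 CPM in SRF KO cells and 6.61 CPM in WT cells, far under Ccnd1.

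To compare cyclins with each other, levels were divided by exonic length and given as RPKM. Ccnd2 made up 20.2% ± 0.484 of the summed RPKM of the D-type cyclins in SRF KO cells and 9.01% ± 0.388 in WT (SD, n = 3). Ccnd3 made up 27.7% ± 1.16 and 45.9% ± 2.02, and Ccnd1 52.1% ± 1.41 and 45.1% ± 2.02 (SD, n = 3). The summed level was 78.0 ± 2.43 RPKM in SRF KO cells and 67.5 ± 5.38 RPKM in WT cells (SD, n = 3), a ratio of 1.16. These shares and the sum did not overlap between the groups. By RPKM, Ccnd1 and Ccnd3 were thus at like levels in WT with little Ccnd2. In SRF KO, Ccnd1 was the most abundant by RPKM and Ccnd2 and Ccnd3 lay closer together. This order depends on the exonic lengths, which were joined over all transcripts. Before division by length, Ccnd3 was at 272 CPM and Ccnd1 at 143 CPM in WT cells, and at 190 and 191 CPM in SRF KO cells. The families compared in this way were picked with their values known, so that no test is given for them.

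The kinases that these cyclins activate differed less. Cdk4, the main partner of D-type cyclins here by RPKM, was between 302 and 340.3 CPM in SRF KO cells and between 308 and 344 CPM in WT cells, a log2 fold change of -0.01 (95% interval -0.14 to 0.13). Of its exonic bases, 19.7% overlap Tspan31 on the opposite strand, which was at 63.8 CPM in SRF KO cells and 52.0 CPM in WT cells. Cdk6 was at 17.9, 16.2 and 15.9 CPM in SRF KO cells and at 21.2, 18.8 and 20.8 CPM in WT cells, and its log2 fold change was -0.28 (SE 0.08, adjusted p in edgeR 0.012). Leaving out either replicate 3 of SRF KO (-0.25) or replicate 1 of WT (-0.25) ended the call of Cdk6. Of the 5 genes of this group, 2 were higher and 2 lower.

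**Figure D2:**
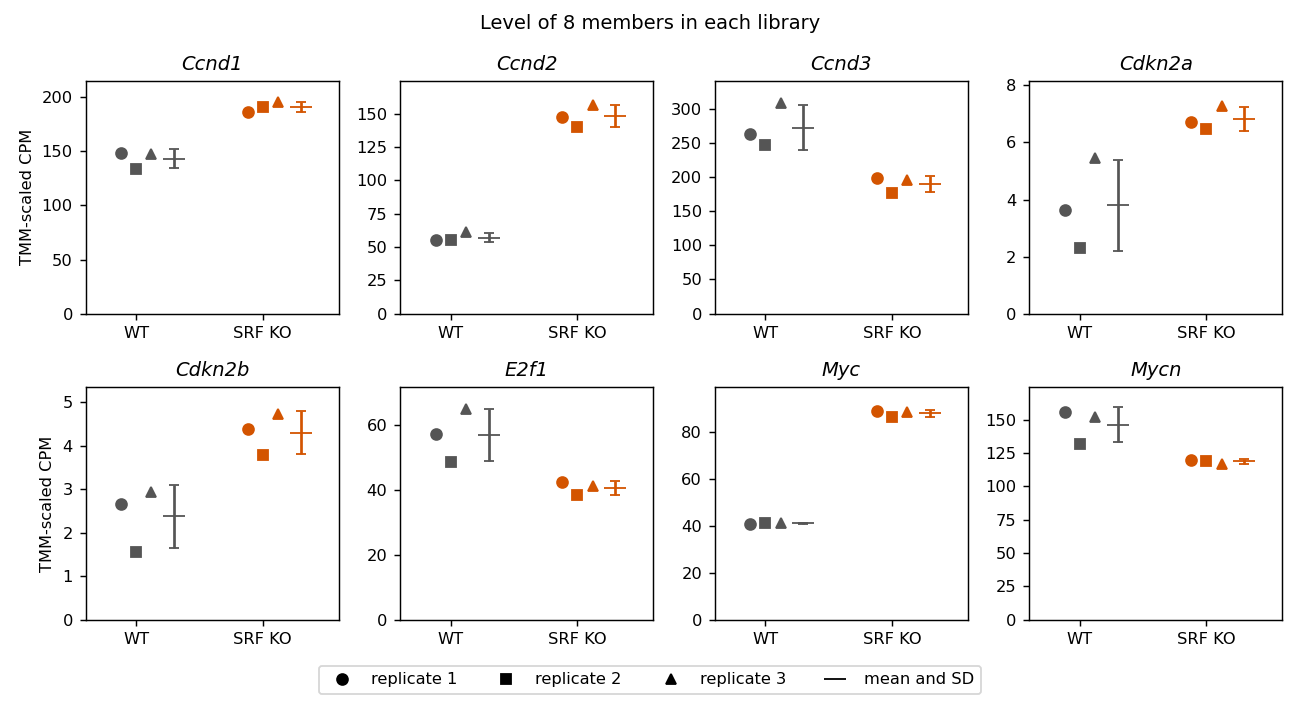
TMM-scaled CPM (vertical axes, from 0) of 8 members in the 3 WT and 3 SRF KO libraries, with the symbol of each point giving the replicate number and the bar giving the mean and SD. Each of these genes was called and its groups do not overlap, which held for 26 of 46 members and 52.7% of all genes tested. WT replicate 2 holds the lowest WT value of Cdkn2a and Cdkn2b, at 2.29 and 1.55 CPM, and also of Ccnd1, Ccnd3, E2f1 and Mycn.

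Of the 4 genes that take cells from G1 into S phase, 1 was called higher and none was called lower. Ccne1, the E-type cyclin that activates Cdk2, was at 286, 285 and 299.7 CPM in SRF KO cells and at 292, 289 and 288 CPM in WT cells. Its groups overlapped, and the log2 fold change was 0.00 (95% interval -0.10 to 0.10). Ccne2, its less abundant relative, was at 35.8, 36.6 and 32.8 CPM in SRF KO cells and at 27.4, 33.4 and 28.3 CPM in WT cells. The call for Ccne2 (log2 fold change 0.24, SE 0.08, adjusted p in edgeR 0.032) was lost without replicate 1 (0.23) or 2 (0.22) of SRF KO and without replicate 1 (0.19) or 3 (0.21) of WT. In addition, 17.4% of its exonic bases overlap Ints8 on the opposite strand, which was at 68.7 CPM in SRF KO cells and 74.8 CPM in WT cells. Ccne1 held 91.6% ± 0.641 of the summed RPKM of the E-type cyclins in SRF KO cells and 92.8% ± 0.747 in WT (SD, n = 3). Cdk2 had a log2 fold change of -0.02 (95% interval -0.17 to 0.12). Cdc25a, the phosphatase that removes the inhibitory phosphates of Cdk2, had one of -0.02 (95% interval -0.12 to 0.09). With its relatives Cdc25b and Cdc25c lower, Cdc25a made up 62.5% ± 0.113 of the summed RPKM of the Cdc25 genes in SRF KO cells and 56.9% ± 1.07 in WT cells (SD, n = 3).

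Among the CDK inhibitors, 2 of 4 were higher and none was lower, all at low to moderate levels. Cdkn2a (chr4:89274471-89294653, minus strand) encodes both the Cdk4 and Cdk6 inhibitor p16Ink4a and, from another first exon, p19Arf, which stabilizes p53; gene counts do not separate them. It was at 6.73, 6.46 and 7.29 CPM in SRF KO cells and at 3.64, 2.29 and 5.47 CPM in WT cells. Cdkn2b (chr4:89306299-89311039, minus strand) encodes the related inhibitor p15Ink4b and is the neighbour of Cdkn2a. It was at 4.39, 3.78 and 4.74 CPM in SRF KO cells and at 2.65, 1.55 and 2.93 CPM in WT cells. Every SRF KO library was above every WT library for both genes, and WT replicate 2 was the lowest library for both. The log2 fold changes were 0.84 (SE 0.21) for Cdkn2a and 0.84 (SE 0.19) for Cdkn2b, with adjusted p in edgeR of 0.0085 and 0.0045. Both were called under the 13 alternative fits, in which the fold changes lay between 0.61 and 1.16 for Cdkn2a and between 0.64 and 0.99 for Cdkn2b. Cdkn2c, which encodes p18Ink4c, had between 28 and 52 counts per library and a log2 fold change of 0.40 (95% interval -0.02 to 0.83). Cdkn1b, which encodes p27Kip1, an inhibitor of cyclin E with Cdk2, had a log2 fold change of 0.01 (95% interval -0.15 to 0.17), at 30.6 ± 2.69 CPM in SRF KO cells and 30.2 ± 1.01 CPM in WT cells (SD, n = 3).

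The Rb family and the E2F factors shifted within each family. Rb1, the retinoblastoma gene, was at 22.7, 23.7 and 21.9 CPM in SRF KO cells and at 28.4, 31.3 and 27.4 CPM in WT cells, and Rbl1, which encodes p107, at 22.9, 27.6 and 24.7 CPM against 34.0, 35.7 and 33.3 CPM. Both were lower in all SRF KO libraries, with log2 fold changes of -0.35 (SE 0.07) and -0.46 (SE 0.08) and adjusted p in edgeR of 0.0023 and 0.00056. The exons of Rb1 overlap those of Lpar6 and Rcbtb2 on the opposite strand by 6.78% and 8.11% of its bases, and these genes had log2 fold changes of 0.42 and -0.36. Lpar6 was at 20.8 CPM in SRF KO cells and 15.5 CPM in WT cells. Rcbtb2 was at 23.4 CPM in SRF KO cells and 30.0 CPM in WT cells, close to the levels of Rb1 itself. Rbl2, which encodes p130, had a log2 fold change of 0.16 and was not called (adjusted p in edgeR 0.11). The summed level of the 3 genes was 9.74 ± 0.46 RPKM in SRF KO cells and 12.1 ± 0.528 RPKM in WT cells (SD, n = 3), and the share of Rbl2 in it was 18.3% ± 1.48 and 13.1% ± 0.673.

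E2f1, an activating E2F factor, was at 42.4, 38.3 and 41.4 CPM in SRF KO cells and at 57.2, 48.8 and 65.0 CPM in WT cells. Its log2 fold change was -0.49 (SE 0.09, adjusted p in edgeR 0.0012). E2f4, which acts with p107 and p130 as a repressor in quiescent and G1 cells, went the other way, at 197, 186 and 194 CPM in SRF KO cells and at 158, 139 and 168 CPM in WT cells. The groups did not overlap, and the log2 fold change was 0.31 (SE 0.07, adjusted p in edgeR 0.0028). E2f4 held 71.1% ± 0.277 of the summed RPKM of the 4 E2F genes in SRF KO cells and 63.8% ± 0.26 in WT, and E2f1 11.7% ± 0.31 and 18.2% ± 0.988 (SD, n = 3). E2f2 and E2f3, further activating factors, had log2 fold changes of 0.18 (95% interval -0.03 to 0.39) and 0.06 (95% interval -0.05 to 0.17).

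**Figure D3:**
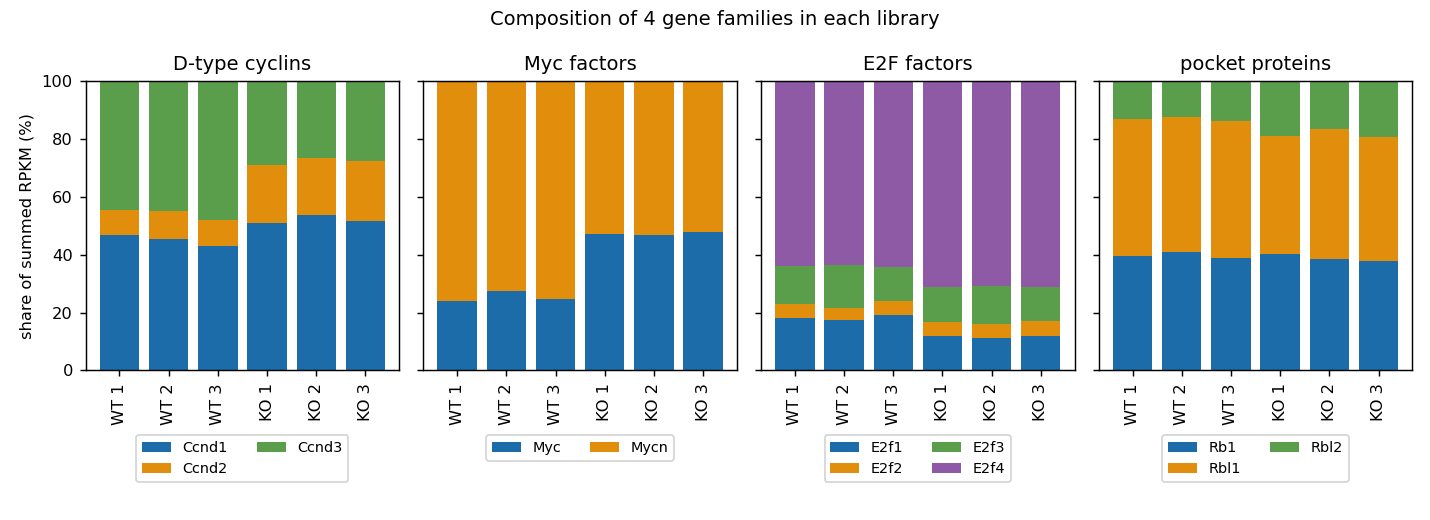
Share of each gene in the summed RPKM of its family (vertical axis, percent) in the 3 WT and 3 SRF KO (KO) libraries, for D-type cyclins, Myc factors, E2F factors and the Rb family (pocket proteins). Ccnd2 rises from 9.01% to 20.2% of the D-type cyclins and Myc from 25.4% to 47.3% of the summed Myc and Mycn.

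Myc and Mycn, related transcription factors of growth and cell cycle genes, changed in opposite directions. Myc (chr15:61985391-61990374, plus strand) was at 88.7, 86.2 and 88.6 CPM in SRF KO cells and at 40.6, 41.3 and 41.1 CPM in WT cells. The libraries within each group were close together, and the log2 fold change was 1.10 (SE 0.05, adjusted p in edgeR 1.6e-08). Mycn (chr12:12936093-12941914, minus strand) was at 120.2, 119 and 117 CPM in SRF KO cells and at 155, 131 and 152 CPM in WT cells. It was lower in every SRF KO library, with a log2 fold change of -0.30 (SE 0.06, adjusted p in edgeR 0.0025). Per exonic length, Mycn was more abundant than Myc in all 6 libraries, and the ratio of Myc to Mycn was 0.898 ± 0.0227 in SRF KO cells and 0.342 ± 0.0344 in WT (SD, n = 3). Their summed level was 68.4 ± 0.662 RPKM in SRF KO cells and 59.5 ± 3.83 RPKM in WT cells (SD, n = 3), a ratio of 1.15.

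The members of S phase, G2 and mitosis were then examined. Of these 24 genes, none was higher and 9 were lower, and the median change was -0.13 (log2); 23 of them had a mean of at least 500 counts, and 8 of these were lower. Beside these counts, 21.3% of all genes tested and 24.7% of those at that depth were lower. These groups were joined after their values were seen. Of the 22 members in the other roles, 7 were higher and 6 lower. The values follow in the order of the cycle.

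In the replication group, 2 of 7 genes were lower and none was higher. Mcm3, a subunit of the MCM helicase that unwinds DNA at the fork, was at 434, 423 and 433 CPM in SRF KO cells and at 496, 488 and 481 CPM in WT cells. The groups did not overlap, and the log2 fold change was -0.18 (SE 0.05, adjusted p in edgeR 0.0065). Gmnn encodes geminin, which binds Cdt1 to prevent a further round of replication, and was at 72.7, 72.8 and 69.7 CPM in SRF KO cells and at 86.1, 97.9 and 76.2 CPM in WT cells. Its log2 fold change was -0.27 (SE 0.08, adjusted p in edgeR 0.015), and the call was lost without SRF KO replicate 3 (-0.25). The change of Gmnn was smaller without WT replicate 2, at -0.18, and the call held. The licensing factors Cdc6 and Cdt1 had log2 fold changes of -0.11 and 0.04, and the helicase subunits Mcm2 and Mcm5 of -0.09 and 0.03. Pcna, the sliding clamp of DNA polymerase, had -0.14 and lay close to the threshold (adjusted p in edgeR 0.054). It passed without SRF KO replicate 2 (-0.18), WT replicate 2 (-0.14) or WT replicate 3 (-0.17) and with gene entries alone (-0.14). Without WT replicate 2, Cdc6 (-0.12) and Mcm2 (-0.13) passed as well.

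Of the A-type and F cyclins, Ccna2, the A-type cyclin of dividing cells, was between 269 and 280.3 CPM in SRF KO cells and between 275 and 309 CPM in WT cells, a log2 fold change of -0.07 (95% interval -0.19 to 0.05). Ccnf, which encodes an F-box protein of a ubiquitin ligase, had -0.05 (95% interval -0.17 to 0.06). Ccna1, an A-type cyclin known from the germ line, had only 7, 8 and 10 counts in SRF KO cells and 21, 17 and 18 counts in WT. Its log2 fold change of -1.02 (SE 0.28, adjusted p in edgeR 0.013) was therefore a difference of a few reads. The call was lost without SRF KO replicate 1 (-0.92) and under DESeq2 (-1.02).

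At mitotic entry, 3 of 8 genes were lower and none was higher. Ccnb2, a B-type cyclin, was at 111, 109 and 113 CPM in SRF KO cells and at 143, 133 and 141 CPM in WT cells. Cdc25b was at 22.9, 24.0 and 24.7 CPM in SRF KO cells and at 32.6, 27.8 and 32.3 CPM in WT cells. Cdc25c was at 23.8, 24.9 and 23.9 CPM in SRF KO cells and at 31.1, 30.9 and 28.9 CPM in WT cells. All 3 were lower in every SRF KO library; Cdc25b and Cdc25c are phosphatases that activate cyclin B with Cdk1. The log2 fold changes were -0.32 (SE 0.05) for Ccnb2, -0.38 (SE 0.08) for Cdc25b and -0.33 (SE 0.06) for Cdc25c, with adjusted p in edgeR of 0.00032, 0.002 and 0.0016. Of the exonic bases of Cdc25c, 12.7% overlap Gm3550 on the opposite strand, which had no row under that symbol.

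The kinase and the more abundant cyclin of mitosis were nearly level. Ccnb1 was at 484, 488 and 483 CPM in SRF KO cells and at 497, 491 and 478 CPM in WT cells, a log2 fold change of -0.01 (95% interval -0.11 to 0.09). Per exonic length, Ccnb1 made up 61.2% ± 0.518 of the summed B-type cyclins in SRF KO cells and 56.1% ± 1.12 in WT cells (SD, n = 3), with no overlap. Cdk1 had -0.04 (95% interval -0.14 to 0.07). Plk1 and Aurka, kinases of centrosome maturation and spindle assembly, had -0.05 (95% interval -0.17 to 0.06) and 0.04 (95% interval -0.09 to 0.17). Wee1, the kinase that holds Cdk1 inactive, had -0.13 and was not called (adjusted p in edgeR 0.062).

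Of the 6 genes of mitosis and proliferation, 3 were lower and none was higher. Bub1 (chr2:127801122-127831865, minus strand), a kinase of the spindle checkpoint, was at 207, 222 and 206 CPM in SRF KO cells and at 267, 296 and 272 CPM in WT cells. This was the largest fall in the group, with a log2 fold change of -0.39 (SE 0.06, adjusted p in edgeR 0.00016). Aurkb, the kinase of the chromosomal passenger complex, was at 72.5, 68.3 and 73.8 CPM in SRF KO cells and at 83.7, 84.7 and 91.1 CPM in WT cells, a log2 fold change of -0.27 (SE 0.05, adjusted p in edgeR 0.0019). Mad2l1, which encodes the checkpoint protein MAD2, was at 109, 114 and 107 CPM in SRF KO cells and at 131, 137 and 116 CPM in WT cells. Its log2 fold change was -0.21 (SE 0.06, adjusted p in edgeR 0.018), and the call was lost without replicate 1 (-0.21) or 3 (-0.20) of SRF KO and without replicate 1 of WT (-0.20). Cdc20, the activator of the anaphase-promoting complex that the checkpoint restrains, had -0.02 (95% interval -0.14 to 0.10).

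Top2a and Mki67, common markers of proliferation, showed how far WT replicate 2 lay from the other WT libraries. Top2a was at 1031, 1115 and 1027 CPM in SRF KO cells and at 1134, 1305 and 1057 CPM in WT cells, a log2 fold change of -0.14 (95% interval -0.30 to 0.02). Mki67 was at 571, 607 and 589 CPM in SRF KO cells and at 602, 744 and 587 CPM in WT cells, a log2 fold change of -0.13 (95% interval -0.30 to 0.04). The groups overlapped for both genes. Without WT replicate 2 the changes shrank to -0.05 for Top2a and -0.01 for Mki67, with adjusted p in edgeR of 0.424 and 0.862. Replicate 2 was also the highest SRF KO library for both genes. Without SRF KO replicate 2 the changes were -0.17 for Top2a and -0.15 for Mki67, and neither gene passed the threshold. Without WT replicate 3, Top2a was at -0.21 and passed the threshold.

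**Figure D4:**
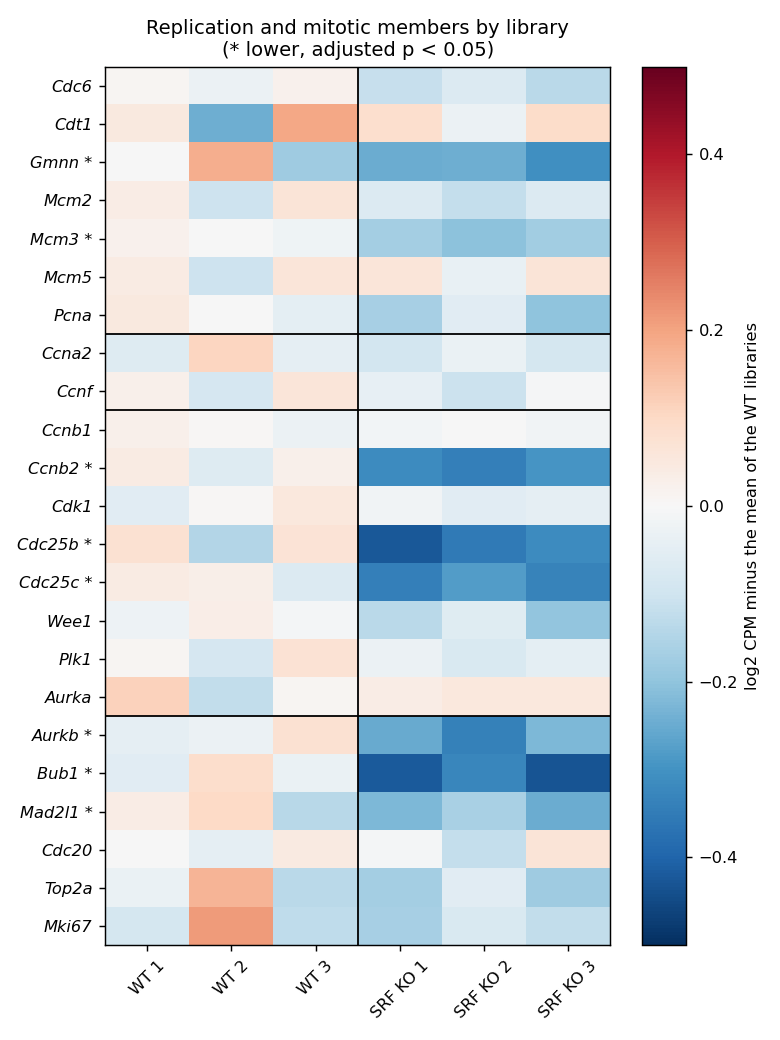
Log2 CPM minus the mean of the WT libraries (color, from -0.5 to 0.5) for 23 members of replication, S to G2 cyclins, mitotic entry and mitosis, in rows, in the 6 libraries, in columns; Ccna1, with at most 21 counts, is left out. An asterisk marks the 8 of these genes that were lower. For Mki67, WT replicate 2 stands apart from the other WT libraries, which lie close together, while Gmnn, Cdt1 and Top2a vary across all WT libraries.

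Promoter sequences were examined because many genes of S phase and mitosis share known elements. E2F sites are common upstream of replication genes. The CHR (cell cycle genes homology region) and CCAAT boxes, the latter bound by NF-Y, are common upstream of mitotic genes. Windows of 300 bases, 250 before the transcription start and 50 after it, were taken from a table of RefSeq promoters (GRCm38.p6) for 35 of the 46 members, in 40 windows. Those of Aurkb, Ccna2, Ccnd1, Ccnd2, Ccne2, Cdc25c, E2f4, Gmnn, Myc, Rb1 and Wee1 were not analysed here. Of these, Ccnd1, Ccnd2, Ccne2, E2f4 and Myc were called higher, and Aurkb, Cdc25c, Gmnn and Rb1 lower. Only Cdkn2a and Cdkn2b could therefore be counted as higher by promoter element. Matches were searched on both strands. An E2F site (TTTGGCGC, TTTGCCGC, TTTCGCGC or TTTCCCGC) was present in 30.0% of the member windows and in 3.72% of the 13988 windows of genes tested. A CHR (TTTGAA or TTCGAA) was present in 40.0% and 13.6%, and a CCAAT box (CCAAT) in 62.5% and 37.5%. The CArG box, the element that SRF binds, was in none of the 40 member windows and in 1.25% of the windows of genes tested, which says only that these letters are not in the member windows.

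The next 4 stretches, each 120 bases with 20 of them after the start, are shown because these mitotic genes carry CHR and CCAAT boxes and yet differ in their change. Capitals mark CHR (TTTGAA or TTCGAA, on either strand) and CCAAT boxes (CCAAT, or ATTGG on the other strand). Bub1 is at chr2:127831840-127831959, Ccnb2 at chr9:70421535-70421654, Cdk1 at chr10:69352893-69353012 and Cdc20 at chr4:118437324-118437443, all on the minus strand of GRCm38.p6.
Bub1: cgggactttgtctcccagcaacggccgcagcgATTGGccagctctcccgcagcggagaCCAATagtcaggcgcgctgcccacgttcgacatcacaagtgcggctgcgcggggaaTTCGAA
Ccnb2: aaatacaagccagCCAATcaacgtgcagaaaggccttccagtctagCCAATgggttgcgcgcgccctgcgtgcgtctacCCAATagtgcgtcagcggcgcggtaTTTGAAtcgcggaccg
Cdk1: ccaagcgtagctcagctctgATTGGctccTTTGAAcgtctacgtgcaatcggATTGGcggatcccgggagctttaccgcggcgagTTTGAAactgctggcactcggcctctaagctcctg
Cdc20: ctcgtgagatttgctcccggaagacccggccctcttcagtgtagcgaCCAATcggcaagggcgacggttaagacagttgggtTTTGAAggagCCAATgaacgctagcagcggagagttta
The log2 fold changes of Bub1 and Ccnb2 were -0.39 and -0.32, and those of Cdk1 and Cdc20 -0.04 and -0.02. These 4 genes were picked for that difference. Of the 16 members with a CHR, 4 were lower, 1 was higher and 11 did not pass the threshold. Of the 19 members with a window but no CHR, 7 were lower and 1 was higher. Beside these counts, 21.3% of all genes tested were lower and 21.2% higher. Most members called higher had no window, so that the counts of higher members cannot be read against that share.

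The following 60-base stretches show E2F sites, in capitals, upstream of the RefSeq start used for the window of 4 members. In the gene annotation Cdc6 begins earlier, at chr11:98907801, so that its stretch lies inside the annotated gene. Mycn is at chr12:12941977-12942036 and Rbl1 at chr2:157204520-157204579 on the minus strand, and Cdc25a is at chr9:109875489-109875548 and Cdc6 at chr11:98907986-98908045 on the plus strand. In Mycn 3 matches lie within this stretch, of which the first pair overlaps on opposite strands.
Mycn: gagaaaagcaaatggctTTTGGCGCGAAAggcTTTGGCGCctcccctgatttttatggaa
Rbl1: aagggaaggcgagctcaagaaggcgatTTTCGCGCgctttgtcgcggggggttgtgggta
Cdc25a: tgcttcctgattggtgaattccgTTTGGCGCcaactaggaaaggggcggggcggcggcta
Cdc6: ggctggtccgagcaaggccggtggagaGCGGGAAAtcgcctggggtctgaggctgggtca
Mycn and Rbl1 were lower at -0.30 and -0.46, and Cdc25a and Cdc6 were at -0.02 and -0.11 and did not pass the threshold. Of the 12 members with an E2F site in a window, 3 were lower, 1 was higher and 8 did not pass the threshold. Of the 23 without one, 8 were lower and 1 was higher. These counts too stand beside 21.3% lower and 21.2% higher over all genes tested, with the same limit on the members called higher.

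Further genes of the same processes, listed apart from the members, were counted in the same fit. Beside 21.2% higher and 21.3% lower over all genes tested, 25 of 46 other DNA replication genes were lower and none was higher, and the median change was -0.17 (log2). The smallest p-values were those of Chaf1b, a histone chaperone subunit, at -0.36, Rpa1, a single-strand DNA binding protein, at -0.32, Cdc45, a partner of the MCM helicase, at -0.37, and Mcm4 at -0.32. Mcm4 was at 374 ± 13.2 CPM in SRF KO cells and 465 ± 4.31 CPM in WT cells (SD, n = 3, adjusted p in edgeR 0.00027). No gene of this list reached 0.5 in either direction, so that the falls were shared by many genes and small in each.

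Of 48 other mitotic genes, 47 had a row under the symbol listed; 18 of these were lower and none was higher, with a median of -0.15. Kif23, a motor of cytokinesis, had a log2 fold change of -0.35, Mybl2, the B-Myb factor of mitotic gene transcription, of -0.33, Cdca3 of -0.31 and the condensin subunit Ncaph of -0.30. Mybl2 was at 823 ± 28.7 CPM in SRF KO cells and 1031 ± 41.4 CPM in WT cells (SD, n = 3, adjusted p in edgeR 4e-04). A mean of at least 500 counts was reached by 45 of the replication and all 47 of the mitotic genes, and at that depth 24.7% of all genes were lower. WT replicate 2 was the highest WT library for some of these genes, such as Kif23, and the lowest for others, such as Mybl2. Medians of the lists without that library were not computed.

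Of the third list, of 40 other regulators, 8 were higher and 15 lower, with a median of -0.07, beside 21.2% higher and 21.3% lower over all genes tested. The share higher was near that of all genes. Ccng2, a cyclin linked to cell cycle arrest, fell from 32.8 ± 1.71 to 16.8 ± 0.581 CPM (SD, n = 3), a log2 value of -0.97 (SE 0.07, adjusted p in edgeR 8.7e-07). Ccni, a cyclin with no well defined cell cycle role, changed by -0.49, and Skp2, the ubiquitin ligase subunit that marks p27Kip1 for degradation, by -0.31. Ccng1, a p53 target, rose by 0.43 to 306 ± 8.17 CPM from 227 ± 15.2 CPM (SD, n = 3). Cdkn1a, the inhibitor p21Cip1, which was chosen after its value was seen, rose by a like amount, 0.43 (SE 0.07, adjusted p in edgeR 6e-04).

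**Figure D5:**
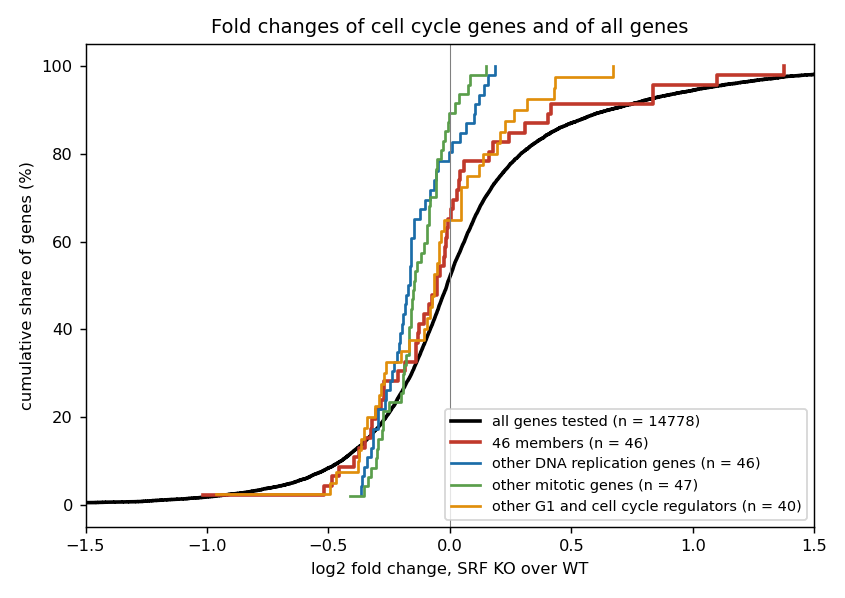
Cumulative share of genes (vertical axis, percent) by log2 fold change of SRF KO over WT (horizontal axis) for the 46 members, 3 lists of other cell cycle genes and all 14778 genes tested. The curves of the other replication and mitotic genes lie left of that of all genes at 0, with medians of -0.17 and -0.15 against -0.01.

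The spread of the members between replicates was also compared, since the title of the study concerns expression noise. The SD of log2 CPM (with 0.5 CPM added) over the 3 libraries was larger in WT than in SRF KO for 33 of 46 members, which is 71.7%, and for 66.0% of all genes tested. Its median over the members was 0.0548 in SRF KO and 0.0853 in WT, beside 0.0730 and 0.105 over all genes tested. Without WT replicate 2 the WT medians, then over 2 libraries, were 0.0327 for the members and 0.0516 for all genes, under those of SRF KO. Leaving out the farthest library of WT alone lowers the SD of WT by construction. SRF KO kept all 3 libraries, so that this last comparison does not order the groups. The spread describes differences between libraries, not between cells, and no test was made over the members.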

How the data were processed

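Bulk RNA sequencing libraries of 3 SRF KO and 3 WT mouse iPSC samples were grouped by their titles. Paired reads of 150 bp were cleared of adaptor, low-quality and empty reads, per the labels' protocols. The submitters' processing notes name the build mm10 and DESeq2, without their role; the aligner, counting program, annotation and strand setting are not given in the sources used here. The deposited table holds unnormalized whole-number counts per gene and per transposable element subfamily, judged from its values, and the deposited counts were used as they are, in 24421 gene and 1146 subfamily entries. A count of 0 allows up to 3 counts, or between 0.0828 and 0.117 CPM, and covers counting error only.

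A single fit in edgeR 4.0.16 (R 4.3.3) took in all entries (filterByExpr with a minimum count of 10, TMM, quasi-likelihood test of SRF KO against WT, Benjamini-Hochberg adjustment over all entries tested, threshold 0.05). This left 14778 genes and 833 subfamilies. SEs were derived from the F statistic, and 95% intervals of single fold changes are not adjusted. Every fold change is SRF KO relative to WT, in log2. Exonic lengths, overlaps and gene coordinates come from GENCODE M21 (GRCm38, the same assembly as mm10), with lengths joined over all transcripts. Scripts were tested on simulated data. Alternatives were DESeq2 1.42.0, 3 other scalings, no filter, gene entries alone, 2 other thresholds, a replicate block and leaving out each library. Replicate pairs differed by a chi-square per degree of freedom of 1.79 to 14.6, so that each library counted as 1 replicate.

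The members, roles and lists were chosen with earlier results of these data known. The named genes are Srf, all members and, from each of the 3 lists of other cell cycle genes, the 4 past the threshold with the smallest p. Cdkn1a and the genes that overlap members were named outside this rule, after their values were seen.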

Additional observations from a re-analysis of the deposited data

How the results depend on the processing

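Under RLE, upper-quartile and library-total scaling and with no filter, the same 22 members were called with the same sign. The median of the members moved to -0.016 with library totals only, a scaling that moved the median of all genes tested from -0.013 to 0.024. A call that also needed a change of 1 (log2) in either direction left 2 members higher and 1 lower, by construction. DESeq2 called 21 of the 22, and 5489 of 14778 genes tested. An adjusted p under 0.01 left 17 members and 4212 genes. Across the fits that each left out 1 library, between 6 and 7 members were higher and between 12 and 18 lower. The median was between -0.064 and -0.034, and these fits called between 4731 and 7461 of all genes tested. Srf was between -3.23 and -2.98 there. Libraries with 1 number in both groups were not taken as pairs. Their deviations from the group means correlated at 0.0531, 0.275 and 0.144, and 4 of 6 libraries correlated best with their own number. These values do not settle whether the numbers pair the libraries. With a replicate block, 7 members were higher and 18 lower, with Pcna, Wee1 and Top2a added, and Srf was at -3.12. The block called 7512 of all genes tested, beside 6273 in the main fit. Among single genes, 812 comparisons with an alternative kept the call or its absence, 48 lost the call and 10 gained it. The 812 include genes called in neither fit whose direction changed. The 48 include members that the stricter thresholds dropped, which follows by construction. Depth limits Ccna1 and the Cdkn2 genes most.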
